A study of Mus musculus with 26 samples.

Results

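The data set out here are the change in the response of the mouse heart to transverse aortic constriction (TAC) between 48 h and 10 d of constriction. TAC places a band on the aortic arch and loads the left ventricle with a raised pressure, and sham animals undergo surgery without the constriction. For each gene the change was the difference of 2 differences: TAC minus sham at 10 d, less TAC minus sham at 48 h. The arrays were chosen by their titles alone and numbered 17 of the 26 in the series: 4 TAC and 4 sham arrays at 10 d, and 5 TAC and 4 sham arrays at 48 h. The other 9 arrays, 5 TAC and 4 sham at 3 wk, entered the estimate of spread and are given as a later time that the change did not use. Each array held total RNA of heart, with no genotype, strain, sex, age or chamber given in the sources used here. The labels do not tie arrays to separate animals, and a TAC or sham heart named below means an array. The p-values therefore rest on the spread from array to array, which may be technical.

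Pressure overload thickens the ventricular wall, and the early answer of cardiac muscle cells includes natriuretic peptides and contractile proteins of the fetal heart. Fibroblasts, vessel cells and macrophages answer too: fibroblasts lay down collagen and other matrix proteins, and the capillary bed is remodelled. A transcript that differs between TAC and sham at both times by the same amount gives a change of 0, a transcript that gains a rise gives a positive change, and one that gains a fall or loses a rise gives a negative change.

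Values are log2 intensity, on which 1 unit is a 2-fold step. Arrays had medians of 861 to 923 at 10 d and 741 to 816 at 48 h, and each correlated with the mean of its own group's other arrays at 0.956 to 0.972. RNA quality, read from the 3′ and 5′ control probe sets of Gapdh and Actb, gave two-sided exact permutation p of 0.611 to 0.886 between TAC and sham at 10 d and at 48 h. None of the 17 measured cardiac muscle markers lay at the floor on all 17 arrays. No scan day held arrays of both durations, so in a value that sets 10 d against 48 h within TAC or within sham hearts the scan day cannot be told apart from the duration; the change itself subtracts sham arrays of the same duration. The 10 d TAC replicate 4 array had a scan day of its own.

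Few single genes passed the test of the change, and all of them were genes that had gained a response by 10 d. Of 7297 probe sets 7 were called by limma at an adjusted p under 0.05 (0.0959%), of which 6 had a higher TAC effect at 10 d (0.0822%) and 1 a lower one (0.0137%). They represented 6 of 5564 genes (0.108%; 5 higher, 0.0899%, and 1 lower, 0.018%), with 1 further probe set that names several genes, mostly H2A histones. The called genes were Postn, Col4a1, Cldn5, Cd93 and H2az1, which had gained a rise, and Art3, which had gained a fall. No probe set that had lost its 48 h response was called; at an unadjusted p under 0.05, where 364.85 of 7297 would pass by the threshold alone, 769 passed, of which 321 were gained rises, 316 gained falls, 72 lost rises and 60 lost falls. The standard error of the change had a median of 0.27 on the log2 scale, against 0.19 for the effect at 10 d and 0.18 for that at 48 h. In bulk tissue, more cells of a type and more RNA per cell cannot be told apart.

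Postn showed the largest called change. It encodes periostin, a matrix protein secreted by activated fibroblasts. At 10 d its log2 intensity was 13.08, 14.51, 14.02 and 14.10 in the 4 TAC hearts, against 11.35, 11.02, 11.001 and 10.72 in the 4 sham hearts. The 48 h values were 13.02, 12.52, 11.99, 13.48 and 11.73 in the 5 TAC hearts, against 11.87, 11.97, 12.32 and 11.98 in the 4 sham hearts. Every TAC heart lay above every sham heart at 10 d, and the groups overlapped at 48 h, where TAC replicates 1, 2 and 4 lay above all sham hearts. TAC over sham was 7.48-fold at 10 d and 1.42-fold at 48 h, a change of 2.39 (log2, SE 0.46, 95% interval 1.44 to 3.34, limma adjusted p = 0.0216). Between 48 h and 10 d Postn was higher by 1.38 in TAC hearts and lower by 1.01 in sham hearts, so both arms moved. At 3 wk it was 5.19-fold higher in TAC hearts (adjusted p = 2.24e-04).

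Col4a1 encodes a chain of collagen IV, the network collagen of basement membranes. Its 10 d values were 14.74, 15.20, 15.09 and 15.08 in TAC hearts, against 13.65, 13.72, 13.69 and 13.80 in sham hearts. Its 48 h values were 13.98, 13.86, 13.65, 14.35 and 13.82 in TAC hearts, against 13.52, 13.76, 13.63 and 13.59 in sham hearts. The 10 d groups were separate, while 1 TAC heart at 48 h, replicate 3, lay within the sham range. The ratio of TAC to sham was 2.48-fold at 10 d and 1.24-fold at 48 h (change 1.00, SE 0.19, adjusted p = 0.0216), and 1.74-fold at 3 wk (adjusted p = 8.52e-04). Sham hearts differed by 0.09 between the durations (adjusted p = 0.685), and TAC hearts by 1.09. Col4a2, the partner chain, picked here with its values known, had a change of 0.83 (SE 0.19) that did not pass (adjusted p = 0.0666), with TAC over sham at 1.92-fold at 10 d and 1.08-fold at 48 h. Its arms moved otherwise than those of Col4a1. Col4a2 differed by 0.08 between the durations in TAC hearts (limma adjusted p = 0.704). In sham hearts it was 0.75 lower at 10 d than at 48 h (limma adjusted p = 4.2e-04). In RefSeq's mouse build GRCm38.p6 the start sites of Col4a1 and Col4a2 lie 21 bases apart on opposite strands of chromosome 8.

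Cldn5 and Cd93 are expressed in endothelium: claudin 5 seals the tight junctions of vessel walls, and Cd93 is a membrane glycoprotein of endothelial and myeloid cells. Cldn5 at 10 d was 11.89, 11.80, 12.03 and 11.72 in TAC hearts, against 10.95, 10.38, 10.36 and 10.49 in sham hearts. The 48 h values were 11.31, 10.77, 10.92, 11.21 and 11.04 in TAC hearts, against 11.16, 11.03, 11.17 and 10.93 in sham hearts. The 48 h groups covered the same range, and at 10 d they did not overlap. TAC over sham was 2.48-fold at 10 d and 0.986-fold at 48 h (change 1.33, SE 0.23, adjusted p = 0.0106). The response was not seen at 3 wk, where TAC over sham was 0.901-fold (adjusted p = 0.649); the difference between 10 d and 3 wk was not tested. Between 48 h and 10 d Cldn5 was 0.81 higher in TAC hearts and 0.53 lower in sham hearts.

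Cd93 at 10 d was 13.34, 13.58, 13.50 and 13.58 in TAC hearts, against 12.22, 12.38, 12.40 and 12.57 in sham hearts. Its 48 h values were 12.52, 12.48, 12.23, 12.73 and 12.43 in TAC hearts, against 12.12, 12.60, 12.51 and 12.52 in sham hearts. The 4 TAC hearts at 10 d were the highest of all 17, and the other 13 arrays shared 1 range. TAC over sham was 2.16-fold at 10 d and 1.03-fold at 48 h (change 1.07, SE 0.18, adjusted p = 0.0106), and the sham hearts of the 2 durations differed by −0.05 (adjusted p = 0.85). At 3 wk TAC over sham was 1.29-fold and did not pass (adjusted p = 0.0884).

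H2az1 encodes the histone variant H2A.Z and stands in the cell cycle list used here. At 10 d it was 11.39, 11.55, 11.27 and 11.48 in TAC hearts, against 10.60, 10.87, 10.56 and 10.62 in sham hearts. At 48 h the order was turned round, with 10.87, 10.59, 10.81, 11.02 and 10.88 in TAC hearts, against 11.15, 11.26, 11.15 and 11.40 in sham hearts. The groups did not overlap at either time, and the 48 h effect of −0.41 was not called (adjusted p = 0.598). TAC stood over sham at 1.69-fold at 10 d and 0.755-fold at 48 h (change 1.16, SE 0.22, adjusted p = 0.0216). Sham hearts were 0.58 lower at 10 d than at 48 h and TAC hearts 0.59 higher. The probe set of several H2A histone genes had a change of 0.86 (SE 0.17, adjusted p = 0.0216), from 0.87 at 10 d and 0.00 at 48 h; its genes cannot be told apart by this probe set.

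Art3 was the only gene called with a lower effect at 10 d. It encodes an ADP-ribosyltransferase family member anchored to the cell surface and known from muscle. At 10 d it was 13.63, 13.35, 13.43 and 13.08 in TAC hearts, against 14.21, 14.26, 13.85 and 14.35 in sham hearts. Its levels at 48 h were 13.60, 13.83, 14.14, 13.63 and 13.76 in TAC hearts, against 13.41, 13.62, 13.57 and 13.25 in sham hearts. All TAC hearts lay below all sham hearts at 10 d, and at 48 h TAC replicate 1 alone lay within the sham range, with the other TAC hearts above it. The ratio for Art3 was 0.577-fold at 10 d and 1.26-fold at 48 h (change −1.12, SE 0.18, adjusted p = 0.0106), and 0.723-fold at 3 wk (adjusted p = 0.0273). Sham hearts were 0.70 higher at 10 d than at 48 h, and TAC hearts 0.42 lower.

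**Figure D1:**
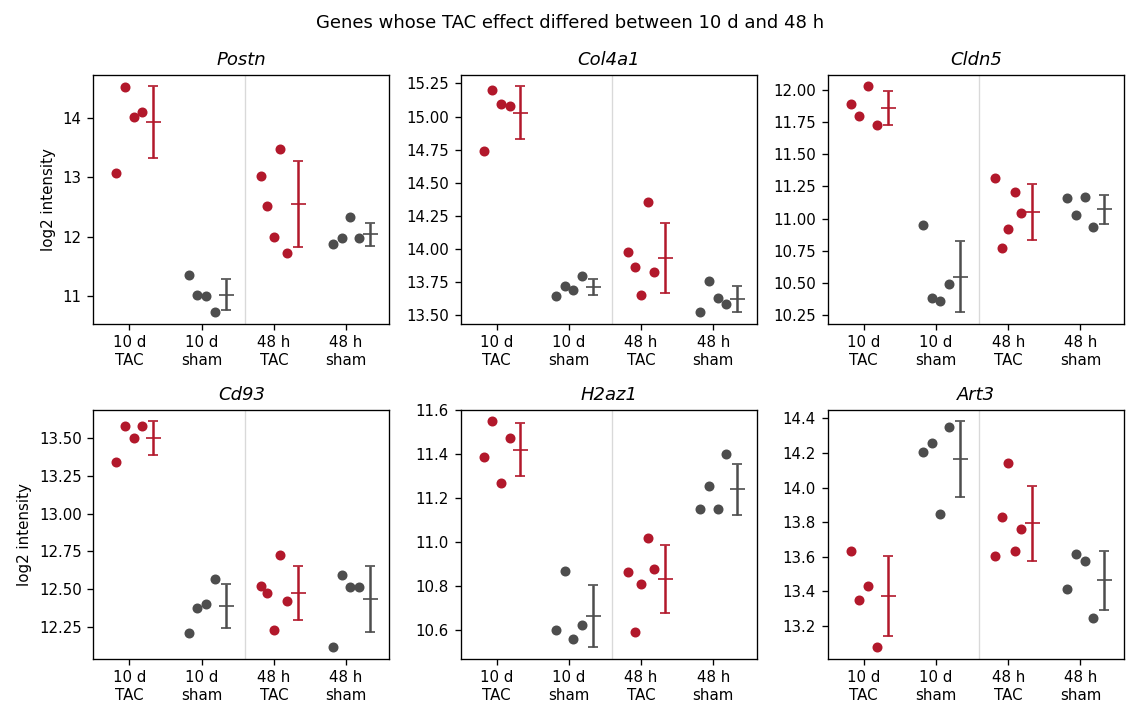
Log2 intensity of each array (points) in the 4 groups for the 6 genes whose TAC effect differed between 10 d and 48 h, with the mean and SD of the group beside the points (n = 4, 4, 5 and 4 from left to right). The 10 d TAC and sham arrays do not overlap in any of the 6 panels, and at 48 h they are separate only for H2az1, where TAC lies below sham.

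The change contains the 10 d effect and both within-arm differences, so the 10 d and within-arm calls of the 6 genes are largely set by their choice and are given as a description. All 6 genes were called between TAC and sham at 10 d and none at 48 h, against 5.03% of genes called at 10 d and 0.0539% at 48 h; over probe sets, 4.87% were called at 10 d. At 10 d the arrays of all 6 were separate, as for 16.0% of genes (7.93% with TAC above and 8.09% with TAC below); at 48 h this held for H2az1, with TAC below, and for 2.48% of genes (1.26% with TAC below). Of the 6, 3 were called at 3 wk in the direction of 10 d (Postn, Col4a1 and Art3), against 4.82% of genes. TAC hearts of the 2 durations were called apart for all 6 (24.9% of genes) and sham hearts for 4 of them, all but Col4a1 and Cd93 (22.0% of genes). The sham hearts thus differed between durations for a large share of the array, and these within-arm values cannot be told apart from scan day.

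The calls depended on single arrays to differing degrees. Cldn5, Cd93 and Art3 were called under all 32 alternatives tried, H2az1 under 29, Col4a1 under 25 and Postn under 22, with the direction kept in each. Postn was not called without 48 h TAC replicate 3, 48 h sham replicate 3, 10 d TAC replicates 2, 3 or 4, or 10 d sham replicates 2 or 4, nor with no filter, no intensity trend or the replicate block. Col4a1 was not called without 48 h sham replicate 2, 10 d TAC replicates 2 or 3, or 10 d sham replicate 1, nor with no filter, no intensity trend or the scan day as a block (change 0.99, adjusted p = 0.0558), which sets 10 d TAC replicate 4 apart. H2az1 was not called without 10 d TAC replicate 2, 10 d sham replicate 1 or 10 d sham replicate 4. The count of 6 higher probe sets became 16 without 48 h TAC replicate 4, 12 without 48 h sham replicate 1 and 18 without 10 d TAC replicate 1; it became 3 without 10 d TAC replicate 2, 10 d TAC replicate 3 or 10 d sham replicate 4. The single lower call became 4 without 48 h TAC replicate 5, 48 h sham replicate 4 or 10 d TAC replicate 1, and 3 without 48 h sham replicate 1 or 10 d sham replicate 3. It became 2 without 48 h TAC replicate 1, 48 h sham replicate 2 or 10 d TAC replicate 4.

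Promoters of 3 called genes that gained a rise are shown to set their sequence beside the values: Postn, the largest change, Cldn5, the endothelial gene, and H2az1, the gene whose effect turned round. They are RefSeq sequences of build GRCm38.p6, all on the plus strand and read 5′ to 3′ over the 250 bases before the start site, at chr3:54359017-54359266 for Postn (the first of its 2 listed starts), chr16:18776597-18776846 for Cldn5 and chr3:137864237-137864486 for H2az1. Capitals mark CCAAT or its reverse complement ATTGG, letters chosen after the sequences were read.
Postn: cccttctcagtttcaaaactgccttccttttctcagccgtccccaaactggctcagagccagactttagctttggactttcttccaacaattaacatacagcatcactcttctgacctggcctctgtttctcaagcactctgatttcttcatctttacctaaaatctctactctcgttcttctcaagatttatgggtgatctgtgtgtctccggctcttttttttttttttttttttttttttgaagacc
Cldn5: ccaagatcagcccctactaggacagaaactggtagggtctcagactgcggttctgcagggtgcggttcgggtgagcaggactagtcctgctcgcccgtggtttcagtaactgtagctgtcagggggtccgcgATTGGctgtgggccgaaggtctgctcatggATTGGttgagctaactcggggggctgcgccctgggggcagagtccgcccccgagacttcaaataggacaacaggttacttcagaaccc
H2az1: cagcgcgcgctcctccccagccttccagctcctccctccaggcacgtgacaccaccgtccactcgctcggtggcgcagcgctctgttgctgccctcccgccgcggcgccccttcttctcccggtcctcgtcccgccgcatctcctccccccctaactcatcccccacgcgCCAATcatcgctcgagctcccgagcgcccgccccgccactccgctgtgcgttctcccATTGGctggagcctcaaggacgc
CCAAT was present 2 times in Cldn5, at 118 and 88 bases before the start, and 2 times in H2az1, at 80 and 23 bases, counted to the motif's first letter in the printed sequence. It stood on either strand in 33.8% of 32851 mouse promoter windows of this length, and no match lay in Postn. TATAAA (12.4% of windows), the AP-1 letters TGANTCA (6.75%), the TEAD letters GGAATG (12.6%) and the ETS letters GGAAGT (19.7%), searched on both strands, had no match in the 3 windows. The arrays do not say which start site was used.

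**Figure D2:**
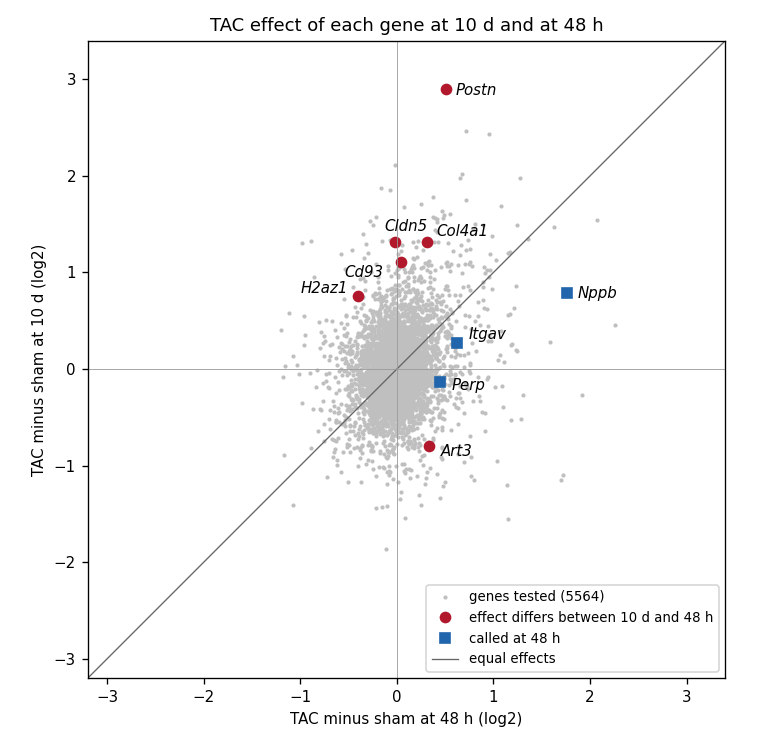
TAC minus sham at 10 d (vertical, log2) against TAC minus sham at 48 h (horizontal, log2) for 5564 genes, with the genes called in the change in red, genes called at 48 h as blue squares and the line of equal effects. Postn, Col4a1, Cldn5, Cd93 and H2az1 lie above the line and Art3 below it, and the 3 genes called at 48 h lie below it without passing the test of the change.

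Most of what was called at 10 d had a small effect of the same sign at 48 h. The 212 probe sets called higher at 10 d (2.91%), chosen on that effect, had a median of 0.75 at 10 d and of 0.15 at 48 h, and 166 of them (78.3%) lay above 0 at 48 h, against 48.3% of all probe sets, with 1 called and 41 at an unadjusted p under 0.05. The 143 called lower (1.96%) had medians of −0.62 at 10 d and −0.09 at 48 h, and 105 (73.4%) lay below 0 at 48 h, with 0 called at an adjusted p and 12 at an unadjusted p under 0.05. The change passed for 6 of the 212 and 1 of the 143. In it 147 (69.3%) and 101 (70.6%) had an unadjusted p under 0.05, against 769 of all 7297 probe sets. At 3 wk, on arrays that entered the choice only through the estimate of spread, their medians were 0.44 and −0.29, and 76 and 33 were called in the same direction (2.99% of probe sets were called higher and 1.74% lower at 3 wk). They were picked for their 10 d effect, which the change contains. The lower 48 h medians and the shares with a low p in the change are therefore given as a description only.

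The responses present at 48 h were few. The 4 probe sets called at 48 h (0.0548%, all higher in TAC) belonged to Nppb, Itgav, Perp and Cav3, and none passed in the change. Perp, a membrane protein of cell junctions, came nearest. At 10 d it was 13.92, 13.88, 13.81 and 13.67 in TAC hearts, against 14.07, 13.91, 13.75 and 14.07 in sham hearts. At 48 h it was 14.22, 14.26, 14.14, 14.17 and 13.97 in TAC hearts, against 13.58, 13.84, 13.64 and 13.76 in sham hearts. The groups were separate at 48 h and overlapped at 10 d, with a change of −0.58 (SE 0.12, 95% interval −0.83 to −0.33, adjusted p = 0.0564).

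Nppb, the gene of the B-type natriuretic peptide, which heart muscle secretes when stretched, had a smaller gap at 10 d that did not pass. At 10 d it was 16.51, 16.31, 16.77 and 16.61 in TAC hearts, against 15.87, 15.56, 16.10 and 15.50 in sham hearts. Levels at 48 h were 17.24, 16.28, 16.05, 16.61 and 16.29 in TAC hearts, against 14.28, 14.89, 15.08 and 14.65 in sham hearts. Every TAC heart lay above every sham heart at both times. TAC over sham was 1.73-fold at 10 d (adjusted p = 0.0249) and 3.4-fold at 48 h (adjusted p = 1.28e-05), and the change of −0.98 (SE 0.28, 95% interval −1.56 to −0.39) did not pass (adjusted p = 0.181). TAC hearts of the 2 durations differed by 0.06 (adjusted p = 0.865), and sham hearts were 1.03 higher at 10 d (adjusted p = 8.12e-04).

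Itgav, an integrin subunit that binds matrix, had a TAC effect of 0.27 at 10 d and 0.62 at 48 h (change −0.35, SE 0.17, adjusted p = 0.474). Its other probe set read −0.39 and −0.03. Cav3 encodes a muscle caveolin, and its called probe set read 0.11 at 10 d and 0.58 at 48 h (change −0.46, adjusted p = 0.248). The probe set that represents Cav3 here had a change of −0.42 from a 48 h effect of 0.24 that was not called (adjusted p = 0.865).

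Behind Art3, the genes with the smallest p-values of a lower effect at 10 d did not pass. Myom2, a protein of the sarcomere's M band, had 13.08, 12.82, 13.11 and 12.69 in TAC hearts at 10 d, against 13.53, 13.39, 13.43 and 13.61 in sham hearts. At 48 h it had 13.15, 13.91, 13.64, 13.79 and 13.24 in TAC hearts, against 13.61, 12.95, 12.61 and 12.49 in sham hearts. TAC hearts were below sham at 10 d with no overlap, while at 48 h sham replicate 1 lay among the TAC values (change −1.20, SE 0.25, adjusted p = 0.0564). Corin, the protease that activates atrial natriuretic peptide, had 11.56, 11.24, 11.59 and 11.48 in TAC hearts at 10 d, against 12.28, 12.53, 12.19 and 12.08 in sham hearts, and was called there (0.573-fold, adjusted p = 0.00381). At 48 h its TAC hearts, from 12.31 to 13.10, overlapped sham hearts at 12.23 to 12.93 (change −0.96, SE 0.22, adjusted p = 0.0703). Hsd17b10, a mitochondrial dehydrogenase, had a change of −0.60 (SE 0.15, adjusted p = 0.104), with an effect of −0.47 at 10 d (adjusted p = 0.0131) and 0.13 at 48 h.

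No change was found for Nppa, which encodes atrial natriuretic peptide, and its arrays spread widely. Nppa at 10 d was 13.62, 14.85, 15.63 and 15.18 in TAC hearts, against 14.75, 13.54, 13.25 and 12.91 in sham hearts. Its 48 h values were 13.54, 13.66, 12.88, 16.78 and 13.63 in TAC hearts, against 12.80, 12.45, 13.05 and 13.42 in sham hearts. The groups overlapped at both times, and 48 h TAC replicate 4 stood far above the other 4 arrays of its group. The change was 0.04 (SE 0.85, 95% interval −1.72 to 1.79, adjusted p = 0.992), and 0.71 without that array (adjusted p = 0.736).

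The atrial light chain Myl7 ran from 9.55 to 15.28 in 10 d TAC hearts, against 10.70 to 15.72 in 10 d sham hearts, and from 7.39 to 16.55 in 48 h TAC hearts, against 10.02 to 12.70 in 48 h sham hearts. The highest 48 h value was again TAC replicate 4, and the lowest lay at the floor. The linear signal was summed over the 13 listed atrial markers present on the array, of which 10 passed the filter. At 10 d it was 115300 to 266900 in TAC and 65350 to 203200 in sham hearts. At 48 h it was 83910 to 454300 in TAC and 39490 to 63420 in sham hearts, with no marker at the floor on all arrays. The sum includes Nppb, so it holds the Nppb response given above. Myl4, another atrial light chain, was 8.61, 9.32 and 9.96 in 48 h TAC replicates 1, 2 and 3. It was 16.83 and 13.17 in replicates 4 and 5, against 9.59 to 12.52 in 48 h sham hearts. With each array's Myl7 level as a covariate, a setting added after the values were seen, the same 6 probe sets were called higher and the same 1 lower, and Nppb then had a change of −0.97 (adjusted p = 0.186).

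**Figure D3:**
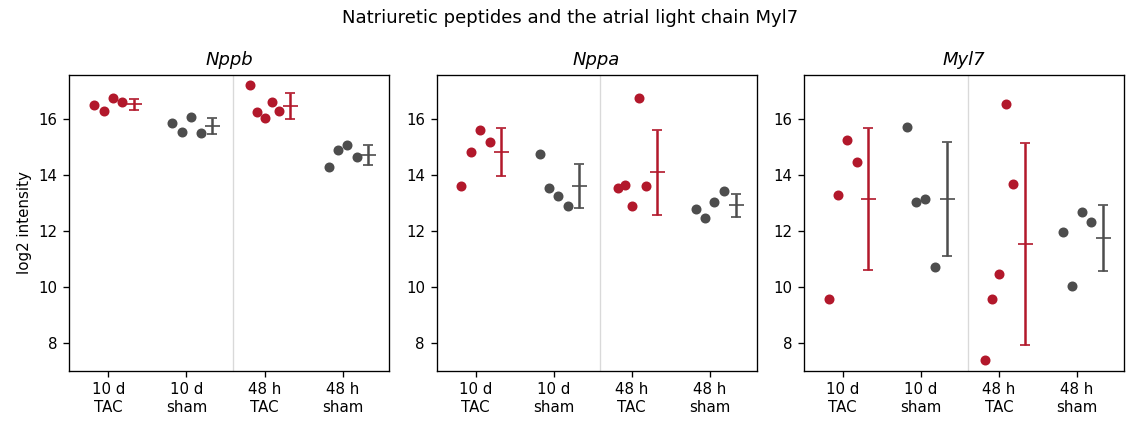
Log2 intensity of each array (points) with group mean and SD (n = 4, 4, 5 and 4 from left to right) for Nppb, Nppa and Myl7, an atrial myosin light chain, on a common axis. Nppb separates TAC from sham at both durations, while Nppa and Myl7 share their highest 48 h array, TAC replicate 4.

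None of the hypertrophy markers passed the test of the change, which only 0.108% of the 5564 genes passed. Over all these genes 308 were higher and 295 lower at an unadjusted p under 0.05. The counts of each list below stand beside these shares. The lists were chosen with earlier results of these data known, so their counts and their ranking are a description. The hypertrophy list holds 17 measured genes, 13 of them with a change above 0, against 49.0% of all genes. Its median change was 0.28, against −0.0082 over all genes. In this list 0 passed, with 1 higher and 1 lower at an unadjusted p under 0.05. The median was 0.0954 without 10 d TAC replicate 4, which the scan day block sets apart, 0.42 without 48 h TAC replicate 4 and 0.42 without 10 d TAC replicate 1. At 10 d 6 of the 17 were called higher in TAC hearts (3.04% of genes) and at 48 h 1 (0.0539%). Myh7, the slow myosin heavy chain of the fetal ventricle, was 2.03-fold higher at 10 d (adjusted p = 0.00797) and 1.24-fold at 48 h (change 0.71, 95% interval 0.07 to 1.35, adjusted p = 0.426). Acta1, skeletal actin, stood at 2.10-fold at 10 d and 1.71-fold at 48 h, with all TAC hearts above all sham hearts at both times (change 0.30, adjusted p = 0.696). Rcan1, a target and inhibitor of calcineurin, was separate at both times too, at 2.60-fold at 10 d and 1.98-fold at 48 h (change 0.39, adjusted p = 0.768). These intervals do not show equal responses: that of Acta1 ran from −0.21 to 0.80 and that of Rcan1 from −0.41 to 1.18. Leaving out single arrays gave 0.0954 (without 10 d TAC replicate 4) to 0.50 (without 10 d TAC replicate 2) for Acta1 and 0.22 (without 10 d TAC replicate 2) to 0.62 (without 48 h TAC replicate 1) for Rcan1.

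Further cardiac genes gave changes near 0. Myh6, the fast heavy chain, had 0.04 (95% interval −0.41 to 0.48), Atp2a2, which pumps calcium back into its intracellular store, 0.20 (−0.24 to 0.63, and 0.045 without 10 d TAC replicate 4) and Ankrd1, a stretch-responsive ankyrin repeat protein, −0.03 (−0.50 to 0.45). Ccn2, a matricellular growth factor, had 0.06 with a wide interval (−1.11 to 1.23). The signs of Myh6, Ankrd1 and Ccn2 turned under some alternatives, among them the scalings quantile normalization for Myh6 and median centring for Ankrd1.

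Collagens had the highest median change of the lists used. Of 22 listed genes 15 were measured, 13 had a change above 0, and the median change was 0.79; Col4a1 alone passed, and 9 had an unadjusted p under 0.05, all higher. At 10 d 11 of the 15 were called higher in TAC hearts (3.04% of genes) and at 48 h 0, with 8 at an unadjusted p under 0.05. At 3 wk 8 were called higher (2.93% of genes). TAC and sham arrays were separate, with TAC above, for 12 of the 15 at 10 d (7.93% of genes) and for 1 at 48 h (1.22%).

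Col1a1, the main chain of fibrillar collagen I, was 14.91, 15.16, 15.38 and 15.33 in TAC hearts at 10 d, against 13.27, 13.08, 13.25 and 13.10 in sham hearts. Its 48 h levels were 14.04, 13.84, 13.05, 14.50 and 13.11 in TAC hearts, against 12.55, 13.21, 13.26 and 13.10 in sham hearts. The ratio was 4.05-fold at 10 d and 1.6-fold at 48 h, where 3 of 5 TAC hearts exceeded every sham heart (change 1.34, SE 0.35, adjusted p = 0.108). It was called without 48 h TAC replicate 4, its highest 48 h array (change 1.54, adjusted p = 0.0381). Its second probe set gave a change of 0.62 (adjusted p = 0.345).

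Col3a1, the chain of collagen III, had a change of 1.33 (SE 0.45, adjusted p = 0.277), from 3.95-fold at 10 d and 1.57-fold at 48 h, and its 2 further probe sets gave 0.82 and 0.55. Probe sets of Col1a2, the second chain of collagen I, disagreed: the representing one gave −0.25 and the other 1.26 (adjusted p = 0.19), the second with an effect of 1.78 at 10 d (adjusted p = 2.56e-04). The largest fitted change of the list was 1.47 for Col5a2 (SE 0.56, adjusted p = 0.333), with 5.40-fold at 10 d. Col6a2, a chain of the microfibrillar collagen VI, had 1.17 (adjusted p = 0.104). Col1a2, Col5a2 and Col6a2 were chosen after their values were seen.

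**Figure D4:**
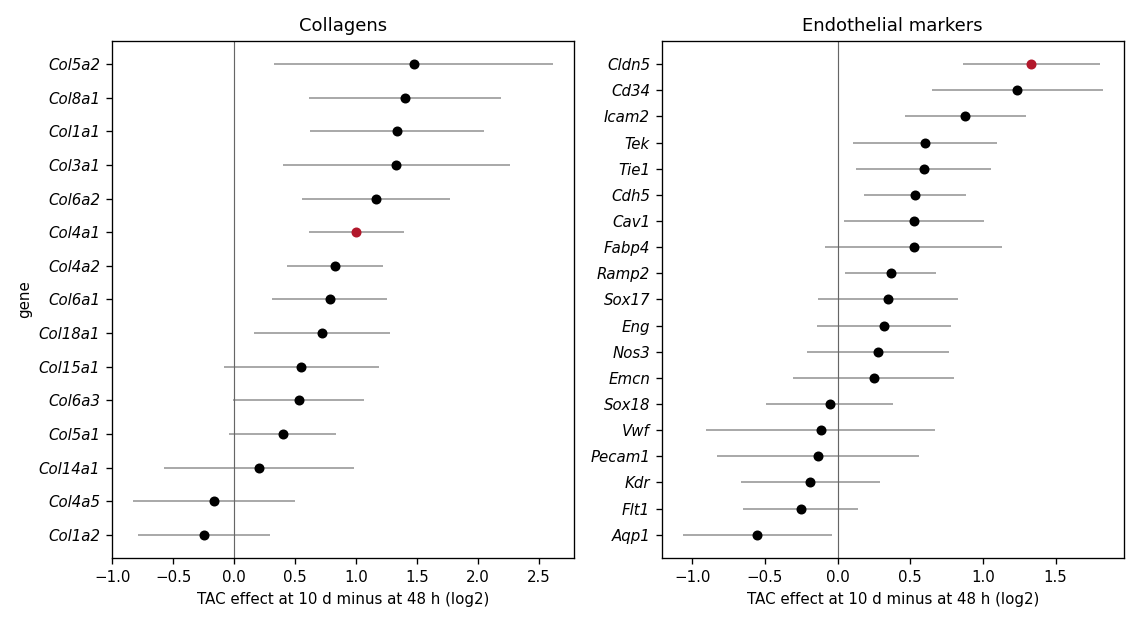
TAC effect at 10 d minus TAC effect at 48 h (horizontal, log2) with its 95% interval for 15 collagen genes and 19 endothelial marker genes, each by its representing probe set and ordered by the value; red marks an adjusted p under 0.05. Of the collagens 13 lie above 0 and of the endothelial markers 13, with Col4a1 and Cldn5 passing.

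The other matrix proteins moved less as a list. Of 42 measured matrix glycoproteins and assembly factors, 34 had a change above 0, with a median of 0.27; Postn passed, and 13 were higher and 0 lower at an unadjusted p under 0.05. At 10 d 12 of the 42 were called higher in TAC hearts (3.04% of genes) and 0 at 48 h (0.0539%). Fn1, fibronectin, was called at 10 d (1.73-fold, adjusted p = 0.00199) and not at 48 h (1.17-fold), with a change of 0.57 (SE 0.21, adjusted p = 0.308). Fbln2, a fibulin of elastic matrix, had a change of 1.07 (SE 0.24, adjusted p = 0.0657), and Lum, the proteoglycan lumican, 0.77 (SE 0.19, adjusted p = 0.104); both were chosen after their values were seen. Among 22 matrix proteases and their inhibitors 15 lay above 0 with a median of 0.18 and 0 passed (2 higher and 1 lower at an unadjusted p under 0.05). That median was 0.10 without 10 d TAC replicate 2 or 10 d sham replicate 4.

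Fibroblast markers overlap those lists, with 21 measured, 14 above 0, a median change of 0.28 and Postn as the one call. In the change 9 were higher and 0 lower at an unadjusted p under 0.05. At 10 d 8 of the 21 were called higher in TAC hearts (3.04% of genes) and at 48 h 0 (0.0539%). TAC and sham arrays were separate, with TAC above, for 10 of the 21 at 10 d (7.93% of genes) and for 0 at 48 h (1.22%). Their median effect was 0.19 at 10 d and 0.20 at 48 h, values that lie close together although the median change lay above 0. The linear signal was summed over the 24 listed fibroblast markers present on the array, including those that failed the filter. It was 321600 to 395900 in TAC hearts at 10 d, against 245900 to 270900 in sham hearts. At 48 h it was 214000 to 299000 in TAC hearts, against 220800 to 250400 in sham hearts. The sums were separate at 10 d and overlapped at 48 h, no marker lay at the floor on all arrays, and their part in the change of the collagens was not tested.

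Endothelial markers differed in sign; Cd93 is not in the list. Of 19 measured, 13 had a change above 0 and 6 below, with a median of 0.35; Cldn5 passed, and 8 were higher and 1 lower at an unadjusted p under 0.05. At 10 d 5 were called higher (3.04% of genes) and at 48 h 0. Cd34, a sialomucin of endothelial and stromal progenitor cells, had a change of 1.24 (SE 0.29, adjusted p = 0.0666), with 0.79 on its second probe set. Icam2, an adhesion molecule of endothelium, had 0.88 (SE 0.20, adjusted p = 0.0666). Its TAC effect was 0.49 at 10 d (limma adjusted p = 0.0496) and −0.38 at 48 h, which was not called. Aqp1, a water channel of capillaries, read −0.55 (adjusted p = 0.443) and 0.02 on a dimmer probe set. These 3 genes were chosen after their values were seen.

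Summed endothelial signal was 139800 to 154700 in TAC hearts at 10 d, against 112100 to 130400 in sham hearts, and 116800 to 149100 in TAC hearts at 48 h, against 122600 to 141700 in sham hearts. The 10 d sums were separate and the 48 h sums were not, and whether they account for Cldn5 and Cd93 was not tested. On the log2 scale, TAC minus sham of the summed signal was 0.31 higher at 10 d than at 48 h.

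Macrophage and monocyte markers were called at 10 d, and none of them passed in the change, which 0.108% of all genes passed. Of 14 measured, 11 had a change above 0, with a median of 0.41, and 0 passed, 6 being higher and 0 lower at an unadjusted p under 0.05. At 10 d 8 of the 14 were called higher in TAC hearts (3.04% of genes) and at 48 h 0 (0.0539%). C1qa, a chain of complement C1q made by macrophages, stood at 1.31-fold at 10 d and 1.07-fold at 48 h (change 0.29, SE 0.12, adjusted p = 0.399), and C1qc at 1.55-fold and 1.18-fold (change 0.38, SE 0.17, adjusted p = 0.443). Signal was also summed over the 25 listed markers present on the array, including those that failed the filter. The sum was 79190 to 86410 in TAC hearts at 10 d, against 57400 to 61700 in sham hearts. At 48 h it was 61240 to 73070 in TAC hearts, against 57330 to 62530 in sham hearts, with overlap.

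Genes of cell division include H2az1. Of 27 measured cell cycle genes, 21 had a change above 0, with a median of 0.40 and H2az1 as the one call; 8 were higher and 1 lower at an unadjusted p under 0.05. Their median effect was 0.35 at 10 d and −0.07 at 48 h, and 3 were called higher at 10 d (3.04% of genes), 0 at 48 h and 1 at 3 wk (2.93%). Stmn1, a regulator of microtubules in dividing cells, had a change of 0.76 (SE 0.18, adjusted p = 0.0666). Its TAC effect was 0.35 at 10 d and −0.41 at 48 h, neither of them called. Cdc20, which activates the anaphase-promoting complex, had 1.02 (SE 0.26, adjusted p = 0.104) and was 1.95-fold higher in TAC hearts at 10 d (adjusted p = 0.0032), against 0.958-fold at 48 h. Ube2c, an enzyme of the same complex's pathway, went the other way at −1.37 (SE 0.64, adjusted p = 0.454). The probe set of Ube2c was dim, with a mean log2 intensity of 9.55 over all arrays. These 3 genes were chosen after their values were seen.

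Cytoskeleton genes lay mostly above 0. Of 54 measured genes, 45 had a change above 0, with a median of 0.30; 0 passed, and 16 were higher and 1 lower at an unadjusted p under 0.05. At 10 d 20 of the 54 were called higher in TAC hearts (3.04% of genes) and 0 at 48 h (0.0539%). Actg1, cytoplasmic actin, stood at 1.48-fold at 10 d (adjusted p = 0.00155) and 1.06-fold at 48 h (change 0.48, SE 0.14, adjusted p = 0.188), while Gsn, the actin-severing gelsolin, had 0.03 (SE 0.17). The smallest p of the list was that of Tmsb10, an actin-binding thymosin chosen after its values were seen, with a change of 1.05 (SE 0.22, adjusted p = 0.0564).

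Immediate early genes are induced within minutes of a stimulus, and many of them encode transcription factors. Their median change was 0.28 over 30 measured genes, 21 of them above 0. None passed, and 4 were higher and 0 lower at an unadjusted p under 0.05. At 10 d 4 of the 30 were called higher (3.04% of genes), and 0 at 48 h and at 3 wk. Jund, an AP-1 subunit, stood at 1.46-fold at 10 d (adjusted p = 0.0189) and 1.00-fold at 48 h (change 0.54, adjusted p = 0.288), and Btg2, an antiproliferative gene, had a change of 0.56 (adjusted p = 0.659). Egr1, chosen after its values were seen, stood at 2.00-fold at 10 d (adjusted p = 0.0267) and 1.09-fold at 48 h (change 0.88, SE 0.36, adjusted p = 0.402).

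Genes of fatty acid use leaned the other way. Of 33 measured, 23 had a change below 0, with a median of −0.22; 0 passed, and 6 were lower and 0 higher at an unadjusted p under 0.05. At 10 d 7 of the 33 were called lower in TAC hearts (1.99% of genes), at 48 h 0, and at 3 wk 11 (1.89%). Ech1, an isomerase of fatty acid oxidation, stood at 0.651-fold at 10 d (adjusted p = 0.0371) and 0.874-fold at 48 h (change −0.43, SE 0.24, adjusted p = 0.542). Hadhb, a subunit of the trifunctional enzyme, had a change of 0.01 (SE 0.15). Etfa, which passes electrons from fatty acid oxidation to the respiratory chain, was chosen after its values were seen and had −0.54 (SE 0.14, adjusted p = 0.104). It stood at 0.744-fold at 10 d (adjusted p = 0.0129) and 1.09-fold at 48 h, and its sham hearts were 0.80 higher at 10 d than at 48 h.

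**Figure D5:**
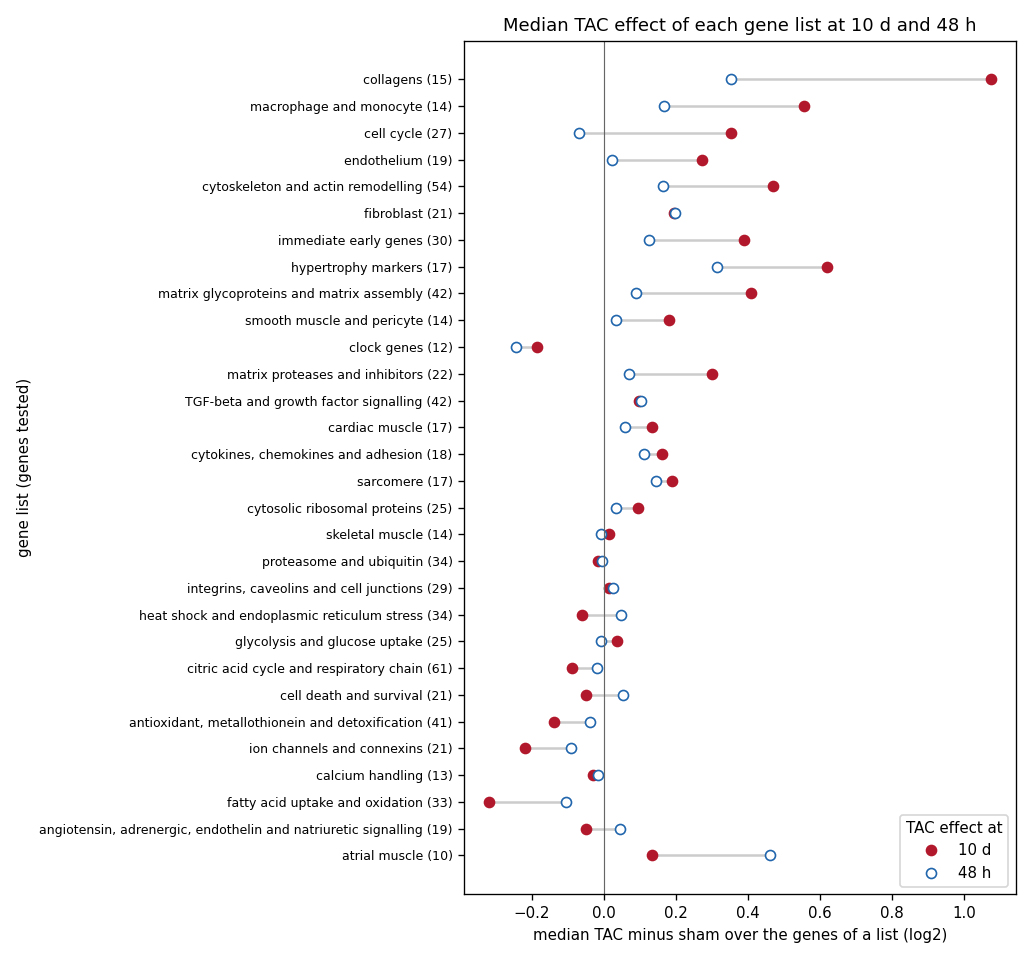
Median TAC minus sham (horizontal, log2) at 10 d (filled) and 48 h (open) over the measured genes of each list with at least 10, ordered by the list's median change, with the number of genes in brackets. Collagens show the widest step, with a 10 d median of 1.07 and a 48 h median of 0.35, and fatty acid uptake and oxidation lies lower at 10 d (−0.32) than at 48 h (−0.11).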

How the data were processed

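Each of the 26 arrays is an Affymetrix MG_U74Av2 array of heart RNA. The deposited values are 1 linear intensity per probe set, scaled to 1 common trimmed mean per array, as the values show; how probes were summarised is not stated in the labels or file headers used. The deposited array description files were used only for the scan day. Values were floored at the 20th percentile (167.9) and log2 transformed. Control probe sets (66 of 12488) were left out, and 7297 above the pooled median (880.1) on at least 4 arrays were tested: 6584 with 1 gene, 248 with several and 465 with none. All 6 groups were fitted with limma 3.58.1 in R 4.3.3 (eBayes with an intensity trend, 20 residual degrees of freedom), and the contrast was tested with Benjamini-Hochberg adjustment over all probe sets; called means an adjusted p under 0.05. The fit was tested on simulated data.

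A gene is represented by its tested probe set of highest mean. Named genes were the called ones, the smallest p-values up to 5 in a direction with fewer calls, up to 3 called or otherwise the 2 brightest of each list described, genes called at 48 h and 13 set markers; others are said to be picked with values known. The members and lists were chosen with earlier results of these data known. Replicate numbers gave correlations of −0.131 to 0.0287 between the deviations of TAC and sham arrays, so they do not pair the arrays. Array number and signal over background limit the precision. Promoter sequences are from RefSeq.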

Additional observations from a re-analysis of the deposited data

Results flagged for a closer look

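The TAC effect differed between 10 d and 48 h for 7 probe sets by the test of the difference itself (limma, adjusted p of 0.0106 or 0.0216). The difference was 2.39 for Postn, 1.33 for Cldn5, 1.16 for H2az1, 1.07 for Cd93 and 1.00 for Col4a1. It was 0.86 for the probe set of several H2A histone genes and −1.12 for Art3.

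One array stood apart from its group: Nppa was 16.78 in 48 h TAC replicate 4, with a gap to the next array of 0.801 of the group's range. It was the 1 such value in 44 groups of arrays tested over 11 genes; chance alone marks about 1 in 20 such groups.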

How the results depend on the processing

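The count of 6 probe sets with a higher effect at 10 d became 21 with a filter at the 70th percentile, 26 with array weights and 3 without the intensity trend. The 1 lower call became 4 with that filter, 8 with array weights, and 2 with quantile normalization, with no filter, with the replicate block or with the scan day block. Leaving out each array in turn gave 3 to 18 higher and 1 to 4 lower calls. Replicate numbers do not pair the arrays; with the replicate block there were 6 higher calls, 5 of them the same, and Postn was not among them (2.29, adjusted p = 0.0573). Signs turned in 8 of the 50 genes tried. With the scan day block Nppa had −0.0818, Myh6 −0.153, Ccn2 −0.0248 and Hadhb −0.0863. With quantile normalization Myh6 had −0.0380, Gsn −0.0154 and Hadhb −0.110. With array weights Myh6 had −0.0233, Ccn2 −0.0148 and Hadhb −0.0450. Ccn2 had −0.0948 with the replicate block, Ankrd1 0.0146 with median centring, and Nppa −0.0322 with Myl7 as a covariate, an alternative chosen after seeing the data. By the probe set of largest interquartile range Col1a2 had 1.26 and Aqp1 0.0214. Leaving out single arrays gave −0.266 to 0.708 for Nppa, −0.153 to 0.166 for Myh6, −0.180 to 0.149 for Ankrd1, −0.254 to 0.430 for Ccn2, −0.0380 to 0.106 for Gsn and −0.0863 to 0.0806 for Hadhb. The cause was not tested.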

Other observations

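Energy metabolism beyond fatty acids and the channel genes showed no call in the change, which 0.108% of all genes passed. Of all 5564 genes, 308 were higher and 295 lower at an unadjusted p under 0.05. Of 61 measured genes of the citric acid cycle and respiratory chain 39 lay below 0, with a median of −0.07 (0 passed by limma; 0 higher and 3 lower at an unadjusted p under 0.05), and of 21 ion channels and connexins 16 lay below 0, with a median of −0.11 (0 passed; 1 higher and 2 lower unadjusted). Leaving out single arrays moved these medians to between −0.121 and 0.0061 for the citric acid cycle and respiratory chain and to between −0.192 and −0.060 for the channels, with the extremes without 10 d sham replicates 4 and 3 and without 10 d TAC replicates 1 and 2. Cytosolic ribosomal proteins, 25 measured, had a median of 0.04, and 34 proteasome and ubiquitin genes one of 0.0057. Both signs turned when single arrays were left out, to −0.011 and −0.041 without 48 h sham replicate 2, and the second also with quantile normalization (−0.016). Gja1, the main ventricular connexin, had −0.11 (SE 0.14), and Fxyd1, a regulator of the sodium pump, −0.14 (SE 0.16).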
